A study of Homo sapiens with 6 samples.

Results

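The p53 target genes described here are 34 genes whose transcription p53 is known to raise or to control, chosen by symbol and sorted by role into 5 groups. Of the 34, 32 were measured, out of 18417 genes in all. BTG2 and FDXR are named in the list, but no array value was analysed for them here, and they enter the promoter search only. Each measured gene had 1 probe set assigned to it alone in the platform's annotation. The rule itself used no measured value of the members beyond the choice of probe set. The list was chosen with earlier results of these data known, so the shares given below describe it and do not test it.

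The arrays measured RNA from A549, a human lung adenocarcinoma cell line known to carry an intact p53 gene. The 3 arrays labelled H2AX knockdown came from stable A549 cells called P1, and the 3 control arrays from stable A549 cells called C. H2AX is a variant of histone H2A, and its phosphorylation marks chromatin near broken DNA ends. Both groups had been starved of serum overnight and then kept for 48 h in VP-16, or etoposide, which traps topoisomerase II on cut DNA. No untreated cells were analysed here, so the values compare the groups under the drug and say nothing of how far the drug itself moved p53 targets. The sources used here do not say how many stable clones stand behind each name, and the p-values reflect how repeated experiments varied, which may leave out variation among clones.

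p53 is a transcription factor that is held low in unstressed cells because the ubiquitin ligase MDM2 marks it for destruction. DNA breaks activate the kinases ATM and CHEK2, which free p53 from MDM2. It then switches on genes that stop the cell cycle, repair DNA, adjust metabolism and, where damage persists, favour cell death. Several targets, MDM2 and PPM1D among them, act back on p53 and limit the response.

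p53 binds DNA at pairs of a decamer known as the p53 consensus half-site, which reads the same on both strands. RefSeq promoter windows, 250 bases before to 50 after an annotated start, were found for 28 of the 34 genes, in 39 windows. An exact decamer stood in a window of 5 of these 28 genes (17.9%), against 8.06% of 27303 genes with windows of the same length. Adjacent decamers with no spacer, with the C and G of each core kept and up to 3 mismatches in all, stood in 6 of the 28 (21.4%), against 1.37% of all genes. With up to 2 mismatches they stood in 3 of the 28 (10.7%), against 0.359%. The list holds genes known as p53 targets, so a high share follows in part from how it was made. The sites of the 5 measured genes among the 6 are shown because they are the sequence features these members share, in GRCh38.p14, 5′ to 3′ on the strand of the gene, with the 20 bases of the pair in capitals.
MDM2 (chr12:68808923-68808942, plus strand): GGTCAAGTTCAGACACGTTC
DDB2 (chr11:47214969-47214988, plus strand): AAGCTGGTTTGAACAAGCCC
AEN (chr15:88621306-88621325, plus strand): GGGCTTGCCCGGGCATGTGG
GDF15 (chr19:18386186-18386205, plus strand): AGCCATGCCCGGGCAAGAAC
SESN1 (chr6:109009018-109009037, minus strand): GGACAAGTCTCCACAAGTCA

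The MDM2 window is given whole because it is the best known p53-driven promoter of the list, an internal promoter within the gene. It spans 300 bases at chr12:68808767-68809066 on the plus strand of GRCh38.p14, and the matching pair of decamers, in capitals, lies from −94 to −75 relative to the start.
MDM2 window: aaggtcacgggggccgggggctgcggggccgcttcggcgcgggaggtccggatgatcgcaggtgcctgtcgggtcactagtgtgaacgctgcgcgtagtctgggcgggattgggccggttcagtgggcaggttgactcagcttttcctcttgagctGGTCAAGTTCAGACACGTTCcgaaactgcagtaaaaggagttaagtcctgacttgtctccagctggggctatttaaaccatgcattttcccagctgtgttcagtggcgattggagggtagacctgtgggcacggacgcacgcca

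In the other windows the pair of decamers began 5 bases before the start in DDB2, with 1 mismatch, and 34 bases before it in AEN, with 2. It began 49 bases before the start in SESN1, with 3 mismatches, and 29 bases after it in GDF15, with 3. The window of CDKN1A held no pair within 3 mismatches. Sequence more than 250 bases before or 50 after a start was not searched, so sites there would be missed. A match is a resemblance of letters, and occupancy by p53 was not measured in these data.

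Facts that touch every value come first. The values are log2 signals, so a difference of −1 is a halving. H2AX read 5.28, 5.17 and 5.49 in knockdown-labelled replicates 1, 2 and 3, against 5.11, 5.27 and 5.26 in control replicates 1, 2 and 3. Its signal was thus not lower in the arrays labelled knockdown, with a difference of 0.10 and a limma adjusted p of 0.823. A 2-sided exact permutation test gave p = 0.4, and 0.1 is the smallest it can give with 3 against 3 arrays. Set beside the 2.72% of genes nearest to it in mean signal, H2AX lay 0.30 above their median difference, at percentile 89.8 among them. Directions below are therefore those of a label and not of a measured loss of H2AX. Bright probe sets read lower in the knockdown-labelled arrays: the median difference was −0.25 in the brightest 20% of genes, where 85.3% were below 0, and 0.15 in the dimmest 20%. Over all genes 51.5% were below 0. Knockdown-labelled replicate 1 and control replicate 1 stood at its ends: relative to the mean of the controls, their brightest 20% had medians of −0.45 and 0.14. By mean signal, the 6 epithelial markers ran from percentile 17.2 of all genes for EPCAM to 99.8 for KRT8, with KRT18 at 99.3 and CDH1 at 87.6. The 5 fibroblast markers ran from percentile 1.09 for LUM to 82.0 for COL1A1, the 5 blood markers from 7.97 for PTPRC to 60.5 for CD14, and the 4 endothelial markers from 19.1 for TEK to 46.2 for CDH5. The 5 fibroblast markers had differences of 0.04 to 0.47 (median 0.34). Every one overlapped between the groups, where 7.17% of all genes stood apart with the knockdown-labelled arrays higher. In limma 0 were called, and 1 was higher at an unadjusted p under 0.05, against 3.78% of all genes. Dim genes as a whole also read higher, yet beside genes nearest in mean signal all 5 lay above, with a median of 0.28. The part of these markers in the values of the p53 targets was not tested.

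Every one of the 32 p53 target genes read lower on average in the knockdown-labelled arrays, where 51.5% of all genes did, and none passed the test. Their differences ran from −0.64 for DRAM1 to −0.04 for AEN, with a median of −0.36, against a median of −0.01 over all 18417 genes. In limma, adjusted over all genes, 0 of 32 were called lower, where 0.0271% of all genes were, and 0 were called higher, where 0.00543% were. The adjusted p of the members ran from 0.273 to 0.941. At an unadjusted p under 0.05, 11 of 32 were lower (34.4%), against 8.38% of all genes, and 0 were higher, against 3.78%. The groups did not overlap, with the knockdown-labelled arrays lower, for 12 of 32 (37.5%), against 9.82% of all genes. For 0 members did they stand apart in the other direction, against 7.17%. In RNA from bulk cells, fewer cells expressing a gene and less RNA per cell cannot be told apart.

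Bright genes as a whole also read lower in the knockdown-labelled arrays, and most members are bright. Of the 32 members 24 lie in the brightest 20% of genes by mean signal, where 85.3% of all genes were below 0. Another 6 lie in the second brightest 20%, where 66.1% were, and 2 in the middle 20%, where 51.3% were. In the brightest 20%, 33.3% of the members were lower at an unadjusted p under 0.05 and 33.3% did not overlap. The shares of all genes there were 22.9% and 23.2%. In the second brightest 20%, 3 of 6 members were lower at that p, against 11.3% of all genes there. The groups did not overlap for 3 of these 6, against 13.3%. Of the 2 members in the middle 20%, 0 were lower at that p, against 5.32%, and 1 did not overlap, against 7.60%. Each member was therefore also set beside its neighbours, the 2.72% of genes nearest to it in mean signal. The median difference of the neighbours, itself taken over the 32 members, was −0.23. The members' differences minus those of their neighbours had a median of −0.09, ran from −0.54 for SPATA18 to 0.29 for AEN, and lay below 0 for 22 of 32 (68.8%), against 49.8% of all genes. In the tails, 5 of 32 members lay below the 10th percentile of their neighbours and 1 lay above the 90th percentile. By definition each of these tails holds about 10% of a gene's neighbours. Whether the counts depart from that share was not tested. For MDM2 and GDF15, which are among the brightest genes, the neighbours are the brightest 2.72% of genes and so mostly dimmer than the gene itself.

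**Figure D1:**
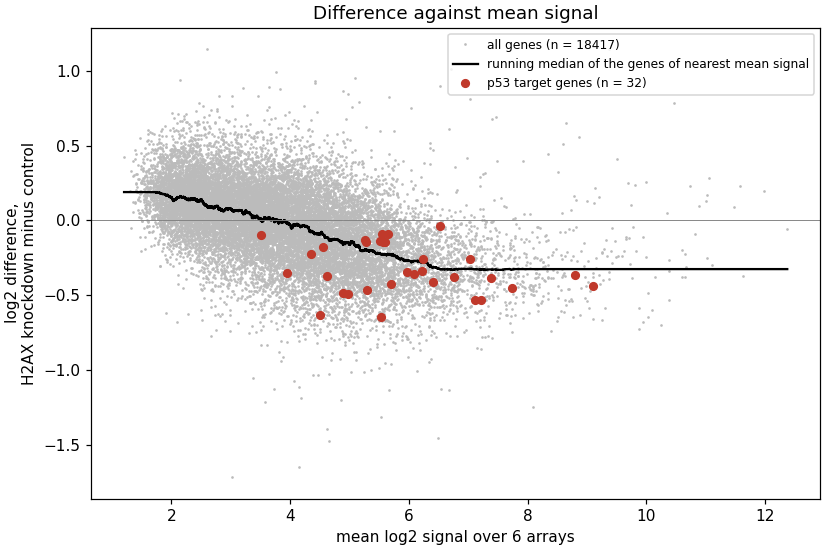
Log2 difference (vertical axis, knockdown-labelled minus control) against mean log2 signal over 6 arrays (horizontal axis) for 18417 genes in grey and 32 p53 target genes in red, with the running median of genes of like signal as a black line. All red points lie below 0, and 22 of 32 lie below the median of their neighbours.

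Among the genes that act back on p53, FBXO22 was the only one whose groups did not overlap. MDM2, the ubiquitin ligase that degrades p53, read 8.62, 8.37 and 8.85 in knockdown-labelled replicates 1, 2 and 3, against 9.11, 8.98 and 8.85 in the controls, in the same order of replicates. Knockdown-labelled replicate 3 lay level with the lowest control. The difference was −0.36 ± 0.173 (SE), or 0.777-fold, with a 95% interval of −40.0% to 0.656% and a limma adjusted p of 0.422. It lay −0.04 from its neighbours, on the log2 scale, at percentile 41.1 among them.

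CCNG1, cyclin G1, which recruits a phosphatase to MDM2, read 7.27, 7.35 and 7.91 in the knockdown-labelled arrays, against 8.28, 7.91 and 7.69 in the controls. Knockdown-labelled replicates 1 and 2 lay below all controls and replicate 3 among them. Its difference was −0.45 ± 0.209 (SE, limma adjusted p = 0.411). FBXO22 is an F-box protein of a ubiquitin ligase that targets methylated p53. It read 5.54, 5.35 and 5.55 in the knockdown-labelled arrays, against 6.09, 5.73 and 5.89 in the controls. Its groups did not overlap, with a difference of −0.42 ± 0.164 (SE, limma adjusted p = 0.357) that lay −0.19 from its neighbours. PPM1D, the phosphatase that dephosphorylates p53 and H2AX, had a difference of −0.09, and MDM4, the MDM2 relative that blocks p53, one of −0.10. Both genes overlapped between the groups, and MDM4 was the dimmest member, at percentile 42.2 of all genes by mean signal. Its knockdown-labelled replicate 3 (3.91) was the highest of the 6 arrays.

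Of the genes that hold the cell cycle, PLK2 had the largest difference and CDKN1A did not stand apart. CDKN1A encodes the kinase inhibitor p21 and is the main effector of arrest by p53. It read 6.52, 7.22 and 6.96 in the knockdown-labelled arrays, against 7.30, 6.92 and 7.25 in the controls. Knockdown-labelled replicate 2 lay above the lowest control, so the groups overlapped. The difference was −0.25 ± 0.199 (SE), with a 95% interval of −37.7% to 12.9% and a limma adjusted p of 0.614. It lay 0.07 above the median of its neighbours. The interval thus leaves room for a moderate change in CDKN1A and does not show that its level was the same.

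PLK2, a polo-like kinase induced by p53, read 6.61, 6.996 and 7.24 in the knockdown-labelled arrays, against 7.71, 7.28 and 7.45 in the controls. The groups did not overlap, though knockdown-labelled replicate 3 came close to control replicate 2. Its difference was −0.53 ± 0.193 (SE, limma adjusted p = 0.334), −0.20 from its neighbours. GADD45A, a stress sensor that binds the nuclear antigen PCNA, read 4.17, 4.49 and 4.63 in the knockdown-labelled arrays, against 5.002, 4.59 and 4.81 in the controls. The groups overlapped, and the difference of −0.37 ± 0.18 (SE, limma adjusted p = 0.424) lay −0.26 from its neighbours. PLK3, a related kinase, overlapped, with a difference of −0.14.

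The DNA repair targets lay close to other genes of their brightness, between −0.15 and 0.02 from the median of their neighbours. DDB2, the damage sensor of nucleotide excision repair, read 5.93, 6.45 and 6.23 in the knockdown-labelled arrays, against 6.74, 6.39 and 6.70 in the controls. Knockdown-labelled replicate 2 lay above control replicate 2. The difference was −0.41 ± 0.182 (SE, limma adjusted p = 0.4), and −0.10 from its neighbours. POLH, the polymerase that copies past ultraviolet lesions, read 5.46, 5.90 and 6.03 in the knockdown-labelled arrays, against 6.29, 5.95 and 6.18 in the controls. Its groups overlapped through knockdown-labelled replicate 3, with a difference of −0.35 ± 0.186 (SE, limma adjusted p = 0.468).

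RRM2B, the p53-induced subunit of ribonucleotide reductase that supplies nucleotides for repair, had a difference of −0.26, within 0.02 of its neighbours. XPC, which recognises distorted DNA, read 4.18, 4.37 and 4.17 in the knockdown-labelled arrays, against 4.51, 4.44 and 4.44 in the controls. Its groups did not overlap, by a narrow margin, and its difference was −0.22 with a limma adjusted p of 0.564. ASCC3, a DNA helicase, had a difference of −0.17 and overlapped.

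**Figure D2:**
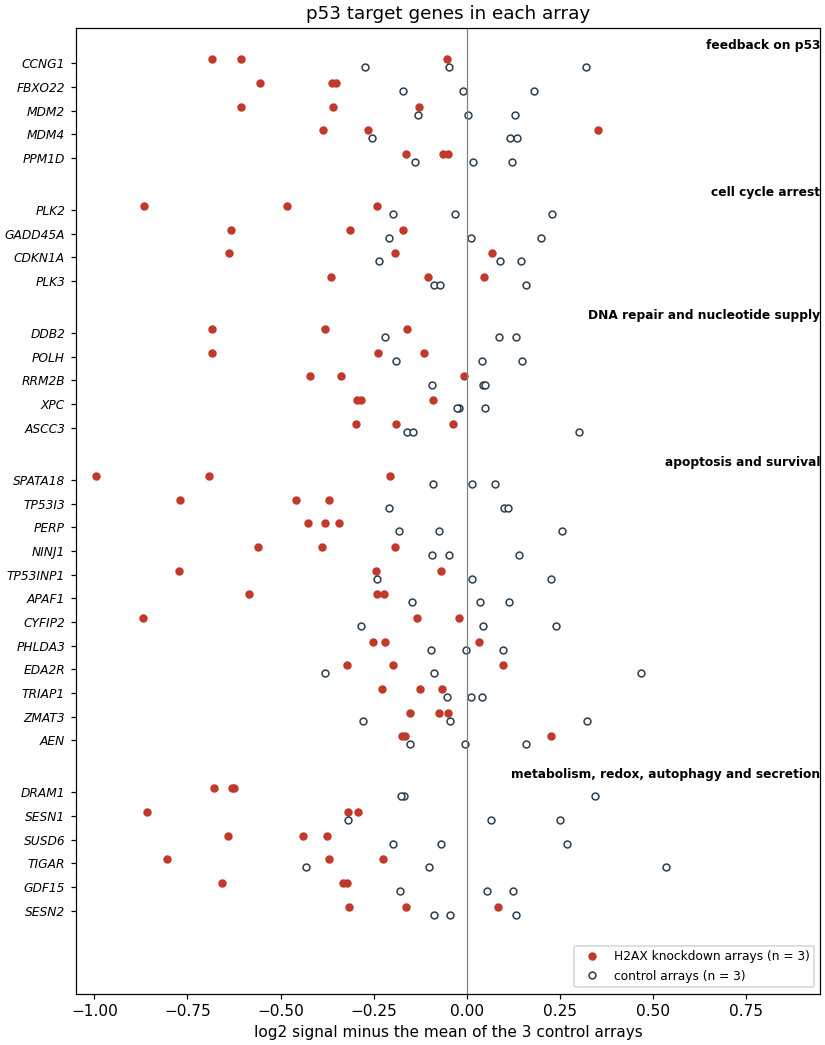
Log2 signal of 32 p53 target genes in each array, relative to the mean of the 3 control arrays (horizontal axis), by role. Filled points are the knockdown-labelled arrays and open points the controls. The groups do not overlap for 12 genes, and for many others 1 or 2 knockdown-labelled arrays lie among the controls.

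The genes of apoptosis and survival spanned the widest range of differences of the 5 role groups. The 12 measured genes had a median of −0.35, with SPATA18 at −0.63 and AEN at −0.04. SPATA18, also called MIEAP, which acts in the quality control of mitochondria, read 3.83, 4.13 and 4.62 in the knockdown-labelled arrays, against 4.90, 4.84 and 4.73 in the controls. The controls lay within a narrow range and the knockdown-labelled arrays were spread below it. The difference was −0.63 ± 0.198 (SE), or 0.646-fold, with a 95% interval of −52.0% to −13.1% and a limma adjusted p of 0.289. It lay −0.54 from its neighbours, at percentile 1.2 among them.

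TP53I3, or PIG3, an oxidoreductase linked to oxidative stress, read 6.61, 6.92 and 7.01 in the knockdown-labelled arrays, against 7.48, 7.17 and 7.49 in the controls. The groups did not overlap, with a difference of −0.53 ± 0.174 (SE, limma adjusted p = 0.305), −0.21 from its neighbours. APAF1, the scaffold of the apoptosome that activates caspase-9, read 3.90, 3.54 and 3.88 in the knockdown-labelled arrays, against 4.24, 4.16 and 3.97 in the controls. The groups did not overlap. Its difference of −0.35 ± 0.169 (SE, limma adjusted p = 0.426) was near the members' median but lay −0.33 from its neighbours, at percentile 7.58 among them, because other genes of its signal had a median of −0.02.

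PERP, a membrane protein of desmosomes, read 7.15, 7.20 and 7.24 in the knockdown-labelled arrays, against 7.84, 7.51 and 7.40 in the controls. The knockdown-labelled arrays were nearly equal and below all controls, with a difference of −0.38 ± 0.167 (SE, limma adjusted p = 0.389). NINJ1, which ruptures the plasma membrane of dying cells, read 6.39, 6.76 and 6.56 in the knockdown-labelled arrays, against 7.09, 6.85 and 6.90 in the controls. Its groups did not overlap either, with a difference of −0.38 ± 0.166 (SE, limma adjusted p = 0.39). PERP lay −0.06 from its neighbours and NINJ1 −0.05. TRIAP1, a small inhibitor of apoptosis, also stood apart, yet its difference was −0.14 and lay above its neighbours by 0.08. TP53INP1, a promoter of p53-driven death and of autophagy, had a difference of −0.36, and CYFIP2, a partner of the translation regulator FMRP, one of −0.34. Both overlapped, with knockdown-labelled replicate 1 far below the other arrays. That array read 5.49 for TP53INP1, against 6.02 and 6.20 in the other knockdown-labelled arrays, and 5.52 for CYFIP2, against 6.36 and 6.25.

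AEN, an exonuclease that digests DNA in apoptosis, was the member with the smallest difference. It read 6.38, 6.77 and 6.37 in the knockdown-labelled arrays, against 6.70, 6.39 and 6.54 in the controls. The highest value was that of knockdown-labelled replicate 2. Its difference of −0.04 ± 0.174 (SE, limma adjusted p = 0.941) lay 0.29 above its neighbours, at percentile 91.4 among them. PHLDA3, an inhibitor of AKT (−0.15), the death receptor family member EDA2R (−0.14) and ZMAT3, an RNA-binding regulator of splicing (−0.09), overlapped and lay 0.08 to 0.13 above their neighbours.

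The genes of metabolism, redox balance, autophagy and secretion had the lowest median of the 5 role groups, −0.48. Of the 6 measured, 4 (66.7%) were lower at an unadjusted p under 0.05, against 8.38% of all genes. SESN1 and SUSD6 lie in the second brightest 20% of genes, where 11.3% of all genes were lower at that p. The others lie in the brightest 20%, where 22.9% were. DRAM1, a lysosomal membrane protein that couples p53 to autophagy, read 5.18, 5.23 and 5.23 in the knockdown-labelled arrays, against 6.20, 5.69 and 5.68 in the controls. The knockdown-labelled arrays were nearly equal and all below the controls. The difference was −0.64 ± 0.178 (SE), or 0.64-fold, with a 95% interval of −51.0% to −16.5% and a limma adjusted p of 0.273, the lowest among the members. It lay −0.42 from its neighbours, at percentile 4.19 among them.

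SESN1, a sestrin, which restrains growth signalling through mTORC1, read 4.36, 4.93 and 4.91 in the knockdown-labelled arrays, against 5.48, 4.91 and 5.29 in the controls. Knockdown-labelled replicate 2 reached into the range of the controls, and the difference was −0.49 ± 0.203 (SE, limma adjusted p = 0.372). SESN2, its paralog, read 5.01, 5.42 and 5.17 in the knockdown-labelled arrays, against 5.29, 5.24 and 5.46 in the controls. Its difference was −0.13 (limma adjusted p = 0.769). SESN1 lay −0.34 from its neighbours and SESN2 0.06 above them. The difference between the sestrins was not tested.

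SUSD6, a membrane protein also known as DRAGO, read 4.49, 4.76 and 4.69 in the knockdown-labelled arrays, against 5.40, 5.06 and 4.93 in the controls. The groups did not overlap, with a difference of −0.49 ± 0.174 (SE, limma adjusted p = 0.329), −0.33 from its neighbours. GDF15, a secreted cytokine of the TGF-beta family and a stress marker in blood, read 8.66, 8.99 and 8.998 in the knockdown-labelled arrays, against 9.44, 9.14 and 9.37 in the controls. The groups did not overlap, and the difference was −0.44 ± 0.169 (SE, limma adjusted p = 0.357), −0.11 from its neighbours. TIGAR, which lowers glycolytic flux, had a difference of −0.47 ± 0.237 (SE, limma adjusted p = 0.445), and its control arrays were widely spread, from 5.09 to 6.06.

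**Figure D3:**
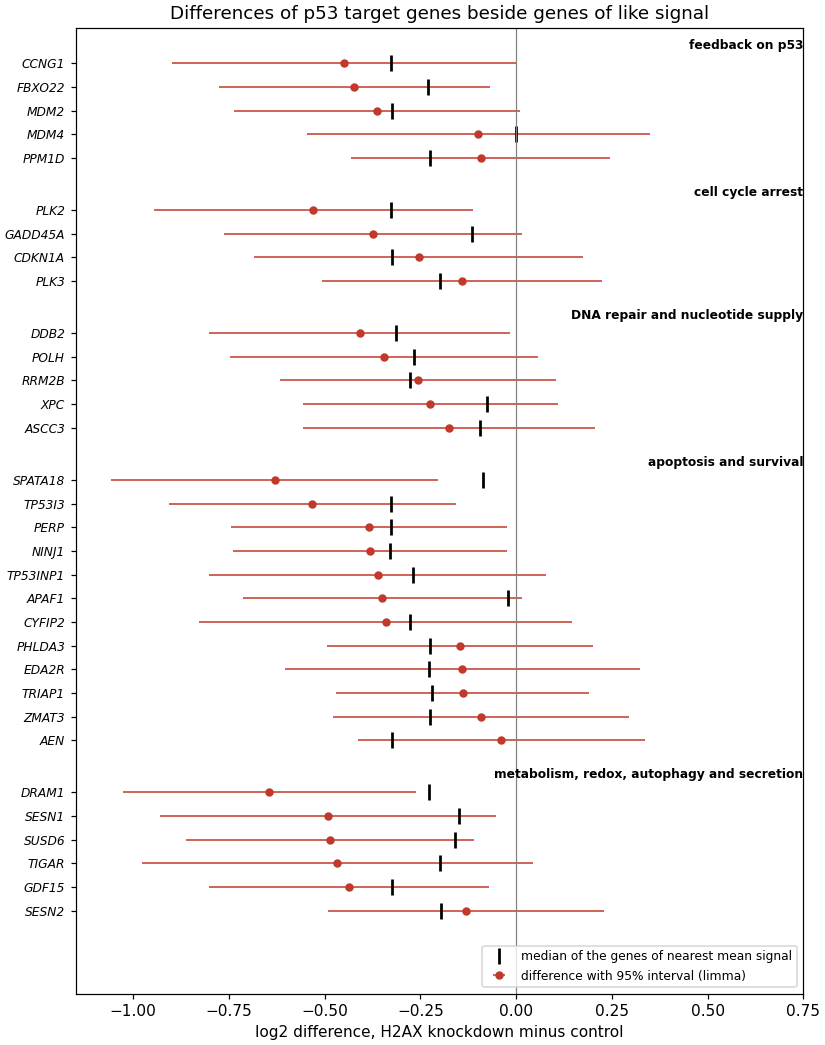
Log2 difference of each p53 target gene (points, knockdown-labelled minus control, n = 3 each) with its 95% interval from limma (lines), and the median difference of the genes of nearest mean signal (black ticks). SPATA18, DRAM1, APAF1, SESN1 and SUSD6 lie furthest to the left of their ticks, and AEN furthest to the right.

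The 95% intervals set the limits of what could be seen. They lay wholly below 0 for 11 members and held 0 for 21. For 30 of the 32 they did not reach −1, so a halving was outside them, and SPATA18 and DRAM1 were the exceptions. The smallest difference that passed the adjusted threshold among all genes was 1.13 in size, larger than that of any member.

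Knockdown-labelled replicate 1 and control replicate 1 stood at the ends of the range for the members, as for bright genes. Knockdown-labelled replicate 1 held the lowest value for 21 of 32 members (65.6%) and for 63.6% of the brightest 20% of genes, and control replicate 1 held the highest for 26 of 32 (81.3%) and for 59.4%. For the brightest 20% of genes, medians relative to the mean of the controls were −0.45, −0.15 and −0.13 in knockdown-labelled replicates 1 to 3. They were 0.14, −0.15 and 0.01 in control replicates 1, 2 and 3. On the same scale, the median over the members was −0.42, −0.31 and −0.18 in knockdown-labelled replicates 1, 2 and 3. In the controls the members' median was 0.15, −0.16 and −0.03. Control replicate 2 came close to knockdown-labelled replicate 3, and 27 of the 32 members lay below the mean of the controls in it, as in knockdown-labelled replicate 2. After the neighbours of each gene were subtracted in the same array, the medians were −0.11, −0.15 and −0.07 in the knockdown-labelled arrays, against 0.05, −0.01 and −0.04 in the controls. Most of the distance between knockdown-labelled replicate 1 and the other arrays was gone on this scale, and knockdown-labelled replicate 3 lay close to control replicate 3.

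**Figure D4:**
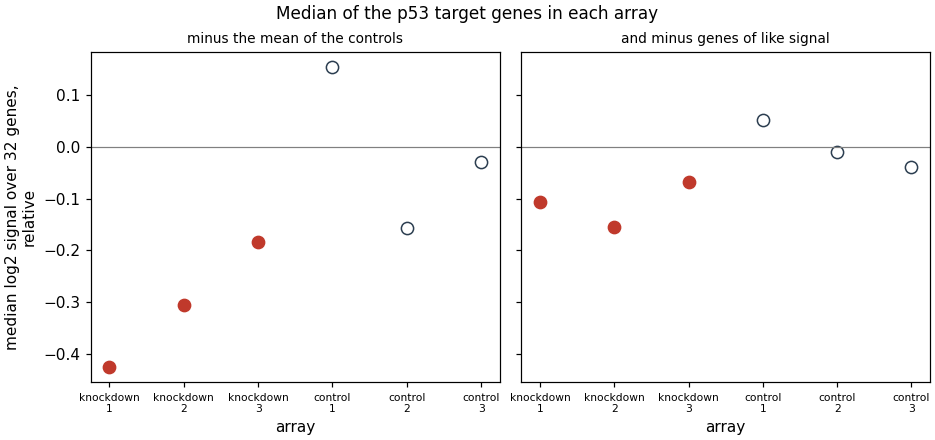
Median over 32 p53 target genes in each array, as log2 signal minus the mean of the controls (left) and with the median of the genes of nearest mean signal also subtracted (right). The knockdown-labelled arrays (filled) run from −0.42 to −0.18 on the left and from −0.15 to −0.07 on the right, and the controls (open) from −0.16 to 0.15 and from −0.04 to 0.05.

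Other normalizations bore on direction as well as size. After quantile normalization the median difference of the members was −0.15, with 24 of 32 below 0, and after cyclic loess, which removes the shift with brightness, it was −0.13, with 22 of 32 below 0. With the arrays at both ends of the shift, knockdown-labelled replicate 1 and control replicate 1, left out together, the median was −0.16, with 24 of 32 below 0. The count of members lower at an unadjusted p under 0.05, 11 on the deposited values, was 4 after quantile normalization (5.58% of all genes), 3 after cyclic loess (5.23%) and 1 without both of those arrays (2.94%). Without knockdown-labelled replicate 1, 2 or 3 it was 6 (5.33%), 9 (8.05%) and 14 (10.9%), and without control replicate 1, 2 or 3 it was 3 (3.34%), 13 (10.5%) and 7 (5.39%). The groups stood apart, with the knockdown-labelled arrays lower, for 8 members after either normalization, against 8.94% and 8.14% of all genes, and for 12 without both of those arrays, against 17.7%. Leaving out 1 array moved that count of 12 to 18 without knockdown-labelled replicate 2 (16.0% of all genes), 20 without knockdown-labelled replicate 3 (18.0%), 22 without control replicate 2 (20.4%) and 15 without control replicate 3 (13.02%), and it was 12 without either replicate 1 (13.04% for the knockdown-labelled one and 12.3% for the control). Fewer arrays also make it easier for groups to stand apart, and the share of all genes grew in each of these. Under cyclic loess CDKN1A stood at 0.02, MDM2 at −0.14 and GDF15 at −0.23, while SPATA18 stood at −0.56 and DRAM1 at −0.44. On the deposited scaling itself all 32 were below 0 with every array in the fit and also without control replicate 2 or 3. There were 31 below 0 without knockdown-labelled replicate 1, 2 or 3 and 29 without control replicate 1, and with array weights, which count divergent arrays less, there were 29. The statement that all members were lower therefore rests on the deposited scaling and on which arrays enter. Whether the shift with brightness is technical was not tested.

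**Figure D5:**
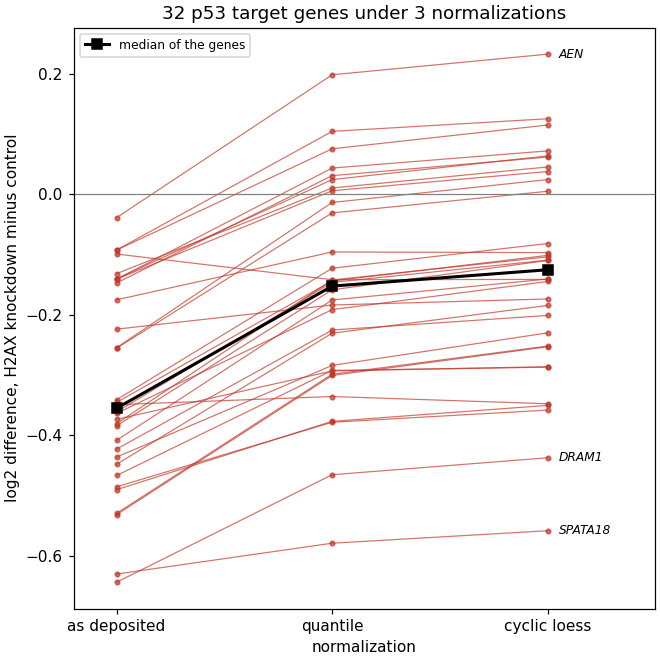
Log2 difference (knockdown-labelled minus control) of 32 p53 target genes on the deposited values, after quantile normalization and after cyclic loess, with 1 red line per gene and the median in black. The median goes over −0.36 and −0.15 to −0.13, and 10 genes lie above 0 after cyclic loess.

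A second list of p53 targets, not among the members, was nearer to the background. Of its 44 genes 40 were measured, with a median difference of −0.18, 31 below 0, and a median of 0.04 beside genes of like signal. In limma 0 were called in either direction, and at an unadjusted p under 0.05 there were 3 lower (7.5%), near the 8.38% of all genes, and 1 of 40 higher, against 3.78%. FAS, the death receptor, read 4.71, 5.02 and 4.53 in the knockdown-labelled arrays, against 5.41, 4.995 and 5.15 in the controls. Its difference was −0.43, with a limma adjusted p of 0.379. TNFRSF10A, a receptor for TRAIL, had a difference of −0.41 and the BCL2 family gene PMAIP1 one of −0.62 (limma adjusted p = 0.411 and 0.279). CX3CL1, the chemokine fractalkine, ran the other way, with 4.25, 4.36 and 4.62 in the knockdown-labelled arrays, against 3.93, 4.22 and 3.84 in the controls (difference 0.41, limma adjusted p = 0.378). The difference between the 2 lists was not tested.

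Genes that regulate p53 had a median difference between those of the target lists, but lay near the members beside genes of like signal. Of 25 listed 23 were measured, with a median of −0.24 and 20 below 0. Beside genes of like signal their median was −0.085, as was that of the members. On that scale 16 of the 23 regulators (69.6%) lay below 0, against 22 of the 32 members (68.8%). In limma 0 of the 23 regulators were called. At an unadjusted p under 0.05, 5 were lower (21.7%, against 8.38% of all genes) and 0 higher, against 3.78%. USP7, the deubiquitinase that stabilises MDM2 and p53, had a difference of −0.56 with overlapping groups. TP53BP2, or ASPP2, which steers p53 to death genes, read 4.70, 5.07 and 4.96 in the knockdown-labelled arrays, against 5.67, 5.26 and 5.43 in the controls, with a difference of −0.55 and no overlap. The methyltransferase SETD7 stood at −0.54, the deacetylase SIRT1 at −0.39 and RPL5, a ribosomal protein that binds MDM2 and has processed pseudogenes, at −0.40. Their limma adjusted p ran from 0.297 for TP53BP2 to 0.39 for RPL5.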

How the data were processed

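RNA of 6 samples, 3 labelled H2AX knockdown and 3 control, was measured on Affymetrix arrays, and sample titles gave the groups. The values are log2 signals of 33297 probe sets, and the submitters' processing notes name RMA as the authors' method. The version of RMA is not given in the sources used here. Over the 18417 genes, the standard deviation of an array ran from 1.29 in knockdown-labelled replicate 1 to 1.56 in control replicate 1. The deposited values thus did not have the same spread in every array. That they are on a log2 scale was read from their range, 0.611 to 13.2. RMA compresses the differences of dim probe sets, and no probe set was called absent. Arrays have no read depth, so their number limits the precision. Of the probe sets 19460 had 1 gene in the platform's annotation, 1754 had several and 12083 had none. For each of 18417 genes the brightest of its probe sets by mean was used, with no filter on signal.

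Knockdown-labelled minus control was tested with limma 3.58.1 in R 4.3.3, 2-sided, with no covariate and Benjamini-Hochberg adjustment over all genes at a threshold of 0.05. Values after ± are standard errors. Genes of like signal are the 2.72% nearest in rank of mean signal. Every member was named, with full statistics for those at an unadjusted p under 0.05, the 2 with the largest difference in each role group, MDM2 and CDKN1A. Others were given in full after their values were seen. Of the other lists, genes at an unadjusted p under 0.05 were named. The members, the lists and the tests were chosen with earlier results of these data known. Promoter windows came from RefSeq, GRCh38.p14, and sites were searched in Python 3.11.15. Figures used matplotlib 3.10.9. The test was checked on simulated data.

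The alternatives were the replicate number as a block, quantile normalization, cyclic loess, a filter at the median signal, the mean of all probe sets, array weights, an intensity trend with robust variance, other windows of like genes and each array left out in turn. Leaving out 2 arrays together was added after seeing the data.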

Additional observations from a re-analysis of the deposited data

How the results depend on the processing

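No member was called by limma under any of the 14 alternatives, with the lowest adjusted p, 0.0655 for TP53I3, under array weights. The numbers of members at an unadjusted p under 0.05 ran from 1 lower without both replicates numbered 1 (2.94% of all genes) to 14 lower without knockdown-labelled replicate 3 (10.9%), and stayed at 0 higher. The median difference of the members moved by more than the spread between controls after quantile normalization (−0.15), cyclic loess (−0.13) and with both replicates numbered 1 left out (−0.16, a setting chosen after seeing the data). Leaving out 1 array at a time gave medians from −0.42 to −0.22, and the values beside genes of like signal ran from −0.11 to −0.06 with each array left out. No other setting moved that value beyond the spread between controls.

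Over all genes, 5 were called lower and 1 higher. The counts were 3 and 0 with the replicate number as a block, 0 and 0 after quantile normalization, cyclic loess or without both replicates numbered 1, 14 and 2 above the median signal, 3 and 0 with all probe sets averaged, and 155 and 36 with array weights. Each array left out in turn gave 0 to 8 lower and 0 to 1 higher. The cause was not tested. The labels do not say whether the replicate numbers pair the arrays. Deviations of same-numbered arrays from their group means correlated at −0.31, −0.02 and 0.07 across genes. Those of differently numbered arrays ran from −0.39 to 0.37, so these correlations cannot decide whether the arrays were paired. Under the block 9 members were lower at an unadjusted p under 0.05, in place of 11, and the share of all genes was 6.97%, in place of 8.38%.

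Signs of uncalled members turned as follows, and the cause was not tested. After quantile normalization the values above 0 were PPM1D at 0.076, PLK3 at 0.0062, AEN at 0.20, PHLDA3 at 0.031, TRIAP1 at 0.025, EDA2R at 0.044, ZMAT3 at 0.10 and SESN2 at 0.011. After cyclic loess the values above 0 were PPM1D at 0.12, CDKN1A at 0.025, PLK3 at 0.038, RRM2B at 0.0053, AEN at 0.23, PHLDA3 at 0.062, TRIAP1 at 0.064, EDA2R at 0.072, ZMAT3 at 0.13 and SESN2 at 0.046. Array weights put PPM1D at 0.017, AEN at 0.025 and EDA2R at 0.085. Without both replicates numbered 1 the values above 0 were MDM4 at 0.052, PPM1D at 0.0038, CDKN1A at 0.0097, PLK3 at 0.052, AEN at 0.10, EDA2R at 0.12, CYFIP2 at 0.043 and ZMAT3 at 0.099. With each array left out in turn, values ran from −0.17 to 0.041 for AEN, −0.33 to 0.094 for EDA2R, −0.23 to 0.069 for ZMAT3 and −0.32 to 0.044 for MDM4. The same range for members that turned only elsewhere was −0.16 to −0.032 for PPM1D, −0.23 to −0.028 for PLK3, −0.24 to −0.094 for PHLDA3, −0.18 to −0.096 for TRIAP1, −0.24 to −0.039 for SESN2, −0.42 to −0.063 for CDKN1A, −0.38 to −0.17 for RRM2B and −0.50 to −0.077 for CYFIP2.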
